A study of Mus musculus with 8 samples.

Results

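The 31 genes described here make cholesterol, control its synthesis or move it within and out of cells. They were taken by symbol from the count table, which holds 24537 genes, and all 31 had enough reads to be tested. They fall into 8 genes of the mevalonate steps, 12 genes from squalene to cholesterol, 5 genes of control by the sterol regulatory element binding proteins (SREBPs), and 6 genes of uptake, transport and efflux. The list holds no lipoprotein receptor, so uptake is covered by the proteins that handle sterol after it has entered the cell, and receptors come from a second list below.

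The samples are 8 preparations of pancreatic islets, 4 Wfs1KO and 4 WT, from male mice aged 12 weeks with no treatment. Wfs1KO mice carry a knockout of Wfs1, the gene of wolframin, which sits in the membrane of the endoplasmic reticulum (ER) and is defective in Wolfram syndrome. Islets were released by collagenase injected into the pancreatic duct and purified on a density gradient, and polyadenylated RNA was sequenced. The labels do not say how the allele was made, what strain the mice were, or whether each sample came from 1 animal, so p-values measure the spread between islet samples, which may in part be technical.

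Cells make cholesterol from acetyl-CoA in the ER, first as mevalonate and isoprenoid units, then as squalene, which is closed into a sterol ring and trimmed. When ER cholesterol is low, the escort protein SCAP carries SREBPs to the Golgi, where proteases free the part that switches on synthesis genes. When ER sterol is plentiful, INSIG proteins hold SCAP and SREBPs back, while liver X receptors (LXRs), which bind oxysterols, switch on export genes. Beta cells, the insulin-secreting cells that make up most of an islet, are known to secrete insulin poorly when they load cholesterol.

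Levels are in CPM, the share of a library's exon counts that a gene takes, put on the same scale in every library. A gene is said to rise or fall in Wfs1KO where the quasi-likelihood test of edgeR gave a p-value, adjusted by Benjamini-Hochberg over 15733 tested genes, under 0.05. Fold changes are log2 values of Wfs1KO over WT, so a negative one means less RNA in Wfs1KO. SE is the standard error of the fold change, and every comparison has n = 4 per genotype.

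Exon counts ran from 16395855 to 27057617 in Wfs1KO and from 15810830 to 21552731 in WT. Wfs1 itself had 101, 105, 125 and 98.9 CPM in Wfs1KO replicates 1 to 4, against 182, 156, 190.1 and 188 CPM in WT replicates 1 to 4. It fell without overlap (log2 fold change -0.74, SE 0.082, adjusted p = 5.06e-05). The values are sums over all exons of the gene, and which exons the allele removes is not given in the sources used here. The largest axis of variation over all genes parted replicates 1 and 2 from replicates 3 and 4 in both genotypes, and the next axis parted the genotypes. The labels do not say what the replicate numbers mark. Of the 10 genes beta cells are known by, 8 fell and 1 rose, and their summed level was 110443 to 135696 CPM in Wfs1KO against 163206 to 209021 CPM in WT. All 10 endothelial markers rose, with sums of 771 to 905 CPM in Wfs1KO against 561 to 649 CPM in WT. In such bulk samples, fewer cells of a type and less RNA per cell cannot be told apart.

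The 31 genes did not move as 1 block. In Wfs1KO islets 7 fell, 3 rose and 21 did not pass the test, and the median fold change of the 31 was -0.00039 on the log2 scale, beside 0.013 over all genes tested. Over all genes, 8.49% fell and 10.4% rose, or 18.9% in either direction. The 10 genes that moved were spread unevenly over the steps: 0 of 8 in the mevalonate steps, 3 of 12 from squalene to cholesterol, 2 of 5 in SREBP control, and 5 of 6 in transport and efflux. The same 10 genes were the ones whose libraries did not overlap between genotypes, against 22.6% of all genes tested. All the changes were small, from -0.44 (Stard4) to 0.31 (Ebp), so that the steepest fall left 0.738 of the WT level and the steepest rise reached 1.24 times the WT level. As their libraries do not overlap, the 10 were bound to keep their direction within a part of the libraries, so this is no separate support. Within replicates 1 and 2 alone 7 of the 10 passed the test, and within replicates 3 and 4 alone 5 passed.

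**Figure D1:**
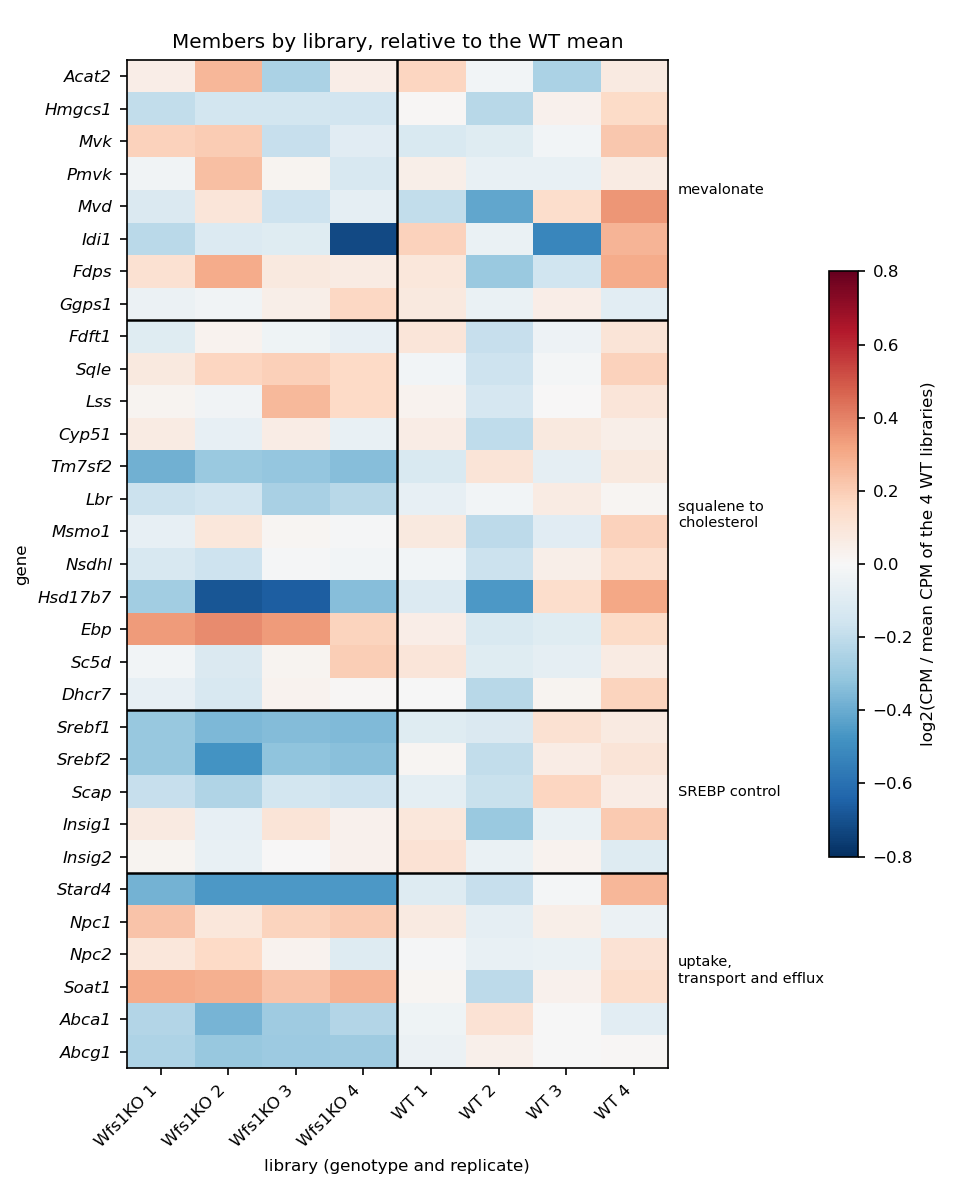
Level of each of the 31 genes (rows, by step) in each library (columns, Wfs1KO replicates 1 to 4, then WT replicates 1 to 4), as the log2 ratio of its CPM to the mean CPM of the 4 WT libraries. Srebf1, Srebf2, Stard4, Abca1 and Abcg1 are blue in all 4 Wfs1KO libraries, Ebp and Soat1 are red in all 4, and most rows of the mevalonate block show no parting of the genotypes.

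The genes of both SREBP transcription factors fell. Of the 20 enzyme genes, 2 fell, 1 rose and 17 did not pass the test. That is near the share over all genes, of which 18.9% passed. Srebf1 encodes SREBP-1, whose isoforms favour fatty acid genes, and Srebf2 encodes SREBP-2, which favours cholesterol genes. Srebf2 (NM_033218, chromosome 15, 82147269 to 82204960, plus strand, mm10) had 152, 135, 149.9 and 149 CPM in Wfs1KO replicates 1 to 4, against 189, 164, 195 and 201 CPM in WT replicates 1 to 4. Its highest Wfs1KO library stayed below its lowest WT library, and replicate 2 was the lowest in each genotype (log2 fold change -0.36, SE 0.068, adjusted p = 0.0022). Srebf1 (NM_011480, chromosome 11, 60199084 to 60220627, minus strand) had 95.9, 92.2, 93.1 and 92.5 CPM in Wfs1KO replicates 1 to 4, against 111, 109, 129 and 125 CPM in WT replicates 1 to 4. The 4 Wfs1KO libraries lay close together and all below WT, whose own libraries formed a lower and a higher pair (log2 fold change -0.34, SE 0.060, adjusted p = 0.00134).

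The other control genes did not pass the test. Scap encodes the escort protein that both SREBPs need, and had 109, 105, 112 and 110.4 CPM in Wfs1KO replicates 1 to 4, against 117, 109, 139 and 129 CPM in WT replicates 1 to 4. Only WT replicate 2 reached into the Wfs1KO range (log2 fold change -0.18, SE 0.069, adjusted p = 0.0831). Without that library its adjusted p in edgeR was 0.0191, in DESeq2 on all libraries it was 0.0485, and in limma-voom it was 0.0395. With replicates 1 and 2 against 3 and 4 as a block, the split of the largest axis of variation, Scap had a log2 fold change of -0.18. Its adjusted p in edgeR was 0.0320 there, and replicates 3 and 4 alone gave 0.0202. These are the only 5 of 20 alternative fits in which Scap passed.

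Insig1 and Insig2 encode the proteins that retain SCAP in the ER, and Insig1 is itself a textbook SREBP target. Insig1 had 163, 148, 166 and 158 CPM in Wfs1KO replicates 1 to 4, against 165, 126, 149 and 179 CPM in WT replicates 1 to 4. The 4 Wfs1KO values lay inside the WT range (log2 fold change 0.036, SE 0.092, adjusted p = 0.836), with a 95% interval of the fold change of -0.16 to 0.24. Insig2 ran from 61.8 to 66.0 CPM in Wfs1KO, against 60.1 to 69.8 CPM in WT (log2 fold change -0.00039, SE 0.057, adjusted p = 0.998), and its interval was -0.12 to 0.12. These intervals bound the change and do not show that the levels were equal. Replicate 2 was the lowest Wfs1KO library for all 5 control genes and the lowest WT library for 4 of them.

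The promoters of these genes are shown because SREBPs, NF-Y and Sp1 are known to act together on SREBP targets. The windows are the 200 bases before the start site in RefSeq (GRCm38.p6, the same build as mm10), written 5′ to 3′ on the strand of the gene. Capitals mark matches to TCACNCCAC, a form of the sterol regulatory element, to its core CACNCCAC, or to the NF-Y box CCAAT, on either strand (ATTGG is CCAAT on the other strand). Only exact matches are marked. The Srebf2 window also holds tcaccccat, which differs from TCACNCCAC in its last base and is left unmarked. Of the genes shown, Hmgcs1 and Insig1 did not pass the test, and Srebf2, Srebf1 and Abca1 fell.
Hmgcs1, chr13:119690151-119690350, plus strand: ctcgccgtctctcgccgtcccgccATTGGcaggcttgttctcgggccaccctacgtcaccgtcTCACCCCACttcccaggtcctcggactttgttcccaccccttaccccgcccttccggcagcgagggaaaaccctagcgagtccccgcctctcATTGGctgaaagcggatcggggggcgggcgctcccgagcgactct
Insig1, chr5:28071212-28071411, plus strand: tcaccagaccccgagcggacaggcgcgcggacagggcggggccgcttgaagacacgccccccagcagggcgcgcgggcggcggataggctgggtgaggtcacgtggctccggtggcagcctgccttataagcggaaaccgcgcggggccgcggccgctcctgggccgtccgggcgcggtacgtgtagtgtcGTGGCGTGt
Srebf2, chr15:82147069-82147268, plus strand: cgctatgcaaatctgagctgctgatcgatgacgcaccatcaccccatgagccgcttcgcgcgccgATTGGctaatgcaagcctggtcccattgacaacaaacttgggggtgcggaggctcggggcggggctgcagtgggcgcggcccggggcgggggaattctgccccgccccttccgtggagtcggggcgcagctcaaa
Srebf1, chr11:60220628-60220827, minus strand: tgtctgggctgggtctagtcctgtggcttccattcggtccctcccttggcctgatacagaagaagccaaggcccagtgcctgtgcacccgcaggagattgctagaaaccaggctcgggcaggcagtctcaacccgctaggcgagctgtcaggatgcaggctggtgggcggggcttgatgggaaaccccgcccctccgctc
Abca1, chr4:53159896-53160095, minus strand: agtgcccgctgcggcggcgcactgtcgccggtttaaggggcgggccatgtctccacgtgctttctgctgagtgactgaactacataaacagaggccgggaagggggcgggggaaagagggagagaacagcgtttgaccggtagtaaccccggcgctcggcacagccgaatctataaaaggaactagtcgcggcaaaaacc

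Of the 31 genes, 25 had a promoter entry, each running from 250 bases before to 50 bases after a start site. TCACNCCAC was found in 1 of the 25, Hmgcs1, where it begins 137 bases before the start site, and in 1.44% of 27025 genes with an entry. The core CACNCCAC, which lies inside the longer form and was searched after the longer form had been, was in 3 of 25 (Hmgcs1, Insig1 and Acat2) and in 7.12% of genes. CCAAT was in 22 of 25 against 41.1% of genes, and GGGCGG, the Sp1 box, was in 23 of 25 against 38.2% of genes. The shares are over all genes with an entry and not over those tested here. Shares among expressed genes were not computed, so whether the motifs set the pathway apart from those was not tested. All were searched on both strands. A gene with several start sites was counted where any of them held the motif. Of the genes that moved, Srebf1, Srebf2, Tm7sf2, Lbr, Ebp and Soat1 hold both boxes, and so do Hmgcs1, Insig1 and Cyp51, which did not pass the test. Srebf1 has 3 start sites, and the window printed is that of the transcript counted here, where no CCAAT was found. The other two hold CCAAT, 30 and 166 bases before their start sites. A match is a run of letters and not a site shown to be bound.

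Genes of the mevalonate steps did not pass the test in either direction (0 of 8, median log2 fold change 0.033). Over all genes 18.9% passed, and 8 genes are too few to set 0 apart from that share. Hmgcs1 encodes HMG-CoA synthase, which uses acetyl-CoA after the thiolase encoded by Acat2. Hmgcs1 had 92.4, 95.8, 95.6 and 95.6 CPM in Wfs1KO replicates 1 to 4, against 107, 90.8, 109 and 118 CPM in WT replicates 1 to 4. The WT libraries 1, 3 and 4 lay above every Wfs1KO library and WT replicate 2 lay below them (log2 fold change -0.16, SE 0.069, adjusted p = 0.126). Leaving out WT replicate 2 brought the adjusted p in edgeR to 0.0101 (log2 fold change -0.23), and replicates 3 and 4 alone gave 0.0383. Hmgcs1 passed in only these 2 of 20 alternative fits. With any other single library left out, its adjusted p in edgeR ran from 0.155 to 0.356.

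Acat2 encodes the thiolase that joins acetyl-CoA units, and ran from 7.501 to 10.7 CPM in Wfs1KO, against 7.496 to 10.04 CPM in WT. Mvk encodes the kinase that phosphorylates mevalonate, and Pmvk encodes the kinase that phosphorylates the resulting mevalonate phosphate. Mvk ran from 7.90 to 10.3 CPM in Wfs1KO, against 8.25 to 10.4 CPM in WT. Pmvk ran from 15.6 to 20.2 CPM in Wfs1KO, against 16.4 to 17.9 CPM in WT. For all 3 the genotypes overlapped, with fold changes of 0.041, 0.040 and 0.030 on the log2 scale. Mvd, the decarboxylase that makes isopentenyl diphosphate, ran from 6.98 to 8.37 CPM in Wfs1KO, against 5.89 to 10.01 CPM in WT (log2 fold change -0.062, SE 0.15, adjusted p = 0.826). Its 4 WT libraries spread more widely than its Wfs1KO libraries.

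Idi1, the isomerase of isopentenyl diphosphate, was the lowest of the 31 genes and the least precise, from 1.24 to 1.90 CPM in Wfs1KO, against 1.42 to 2.45 CPM in WT (log2 fold change -0.27, SE 0.26, adjusted p = 0.53). Its 95% interval, -0.83 to 0.28, leaves room for a change in either direction. Fdps, which makes farnesyl diphosphate, ran from 20.2 to 23.7 CPM in Wfs1KO, against 15.7 to 23.8 CPM in WT (log2 fold change 0.14, SE 0.11, adjusted p = 0.462). Ggps1, which makes geranylgeranyl diphosphate for protein prenylation, ran from 52.0 to 60.3 CPM in Wfs1KO, against 50.8 to 56.8 CPM in WT (log2 fold change 0.036, SE 0.062, adjusted p = 0.752). Neither parted the genotypes.

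From squalene to cholesterol, 2 genes fell, 1 rose and 9 did not pass the test, with a median log2 fold change of -0.019. The 2 that fell, Tm7sf2 and Lbr, both encode sterol C14-reductases, the enzymes that remove the double bond left after lanosterol demethylation. Lbr is also the lamin B receptor of the inner nuclear membrane. Tm7sf2 (NM_028454, chromosome 19, 6062821 to 6067850, minus strand) had 7.77, 8.27, 8.19 and 8.02 CPM in Wfs1KO replicates 1 to 4, against 9.36, 10.9, 9.66 and 10.7 CPM in WT replicates 1 to 4. Every Wfs1KO library lay below every WT library (log2 fold change -0.34, SE 0.093, adjusted p = 0.0214). The adjusted p in edgeR was 0.0626 without Wfs1KO replicate 1, 0.0580 without WT replicate 2 and 0.0662 without WT replicate 4.

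Lbr (NM_133815, chromosome 1, 181815315 to 181842401, minus strand) had 42.6, 43.2, 40.0 and 41.1 CPM in Wfs1KO replicates 1 to 4, against 45.8, 47.3, 50.3 and 48.5 CPM in WT replicates 1 to 4. The genotypes again did not overlap, and the gap between them was narrower than for Tm7sf2 (log2 fold change -0.20, SE 0.054, adjusted p = 0.0178). Its adjusted p in edgeR was 0.0652 without WT replicate 3 and 0.0526 with no filter on low counts. Per length, Lbr was the more abundant of the 2 reductases, at 11.8 ± 0.404 in Wfs1KO and 13.6 ± 0.535 in WT CPM per kb (SD), against 5.50 ± 0.151 in Wfs1KO and 6.93 ± 0.529 in WT CPM per kb for Tm7sf2.

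Ebp encodes the sterol isomerase that shifts the C8 double bond of the sterol ring, and it moved the other way. Ebp (NM_007898, chromosome X, 8185329 to 8193512, minus strand) had 24.4, 25.2, 24.5 and 21.9 CPM in Wfs1KO replicates 1 to 4, against 20.02, 17.8, 18.03 and 21.4 CPM in WT replicates 1 to 4. Wfs1KO replicate 4 was the lowest of its genotype and still above the highest WT library (log2 fold change 0.31, SE 0.077, adjusted p = 0.012).

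Hsd17b7, the 3-ketosteroid reductase that acts with Nsdhl in C4 demethylation, had the most negative fold change of the 31 genes and missed the test. It had 9.03, 6.82, 6.92 and 8.66 CPM in Wfs1KO replicates 1 to 4, against 10.1, 7.97, 12.1 and 13.6 CPM in WT replicates 1 to 4. WT replicate 2 lay below Wfs1KO replicates 1 and 4, and the other 3 WT libraries lay above every Wfs1KO library (log2 fold change -0.47, SE 0.16, adjusted p = 0.0564). With the replicate number as a block the adjusted p in edgeR was 0.0266, with replicates 1 and 2 against 3 and 4 as a block it was 0.0358, without WT replicate 2 it was 0.00970, and without Wfs1KO replicate 1 it was 0.0461. DESeq2 gave 0.0397 and limma-voom 0.0350, so its side of the threshold depends on the model. In the authors' deposited table its adjusted p was 0.0359.

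Sqle encodes squalene epoxidase, a rate-limiting enzyme of the later steps, and had 152, 162, 164 and 161 CPM in Wfs1KO replicates 1 to 4, against 142, 128, 142 and 163 CPM in WT replicates 1 to 4. WT replicate 4 lay among the Wfs1KO libraries and the other 3 WT libraries lay below them (log2 fold change 0.15, SE 0.068, adjusted p = 0.149). Without WT replicate 4 the adjusted p in edgeR was 0.0258, and this was the only 1 of 20 alternative fits in which Sqle passed. With any other single library left out it ran from 0.148 to 0.324. Fdft1, which makes squalene from farnesyl diphosphate, ran from 47.6 to 51.9 CPM in Wfs1KO, against 44.9 to 54.7 CPM in WT (log2 fold change -0.044, SE 0.067, adjusted p = 0.715). Lss, which closes squalene epoxide into lanosterol, ran from 55.1 to 67.4 CPM in Wfs1KO, against 51.1 to 60.0 CPM in WT (log2 fold change 0.11, SE 0.072, adjusted p = 0.351). Cyp51, the lanosterol demethylase, ran from 68.9 to 75.4 CPM in Wfs1KO, against 62.6 to 76.1 CPM in WT (log2 fold change 0.0017, SE 0.067, adjusted p = 0.99). None of these 3 parted the genotypes.

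Msmo1 encodes the C4-methyl sterol oxidase and ran from 84.5 to 94.1 CPM in Wfs1KO, against 76.7 to 101 CPM in WT. Nsdhl, the decarboxylating dehydrogenase of the same demethylation, ran from 9.97 to 11.1 CPM in Wfs1KO, against 9.93 to 12.3 CPM in WT. Their fold changes were 0.0064 and -0.083 on the log2 scale, smaller than their SEs. Sc5d, which adds the C5 double bond after the isomerase, ran from 30.0 to 37.2 CPM in Wfs1KO, against 30.3 to 34.6 CPM in WT. Dhcr7, which reduces the C7 double bond at the end of the pathway, ran from 21.7 to 24.1 CPM in Wfs1KO, against 20.3 to 26.8 CPM in WT. Sc5d (log2 fold change 0.023, SE 0.074, adjusted p = 0.876) and Dhcr7 (log2 fold change -0.039, SE 0.081, adjusted p = 0.793) overlapped between genotypes.

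**Figure D2:**
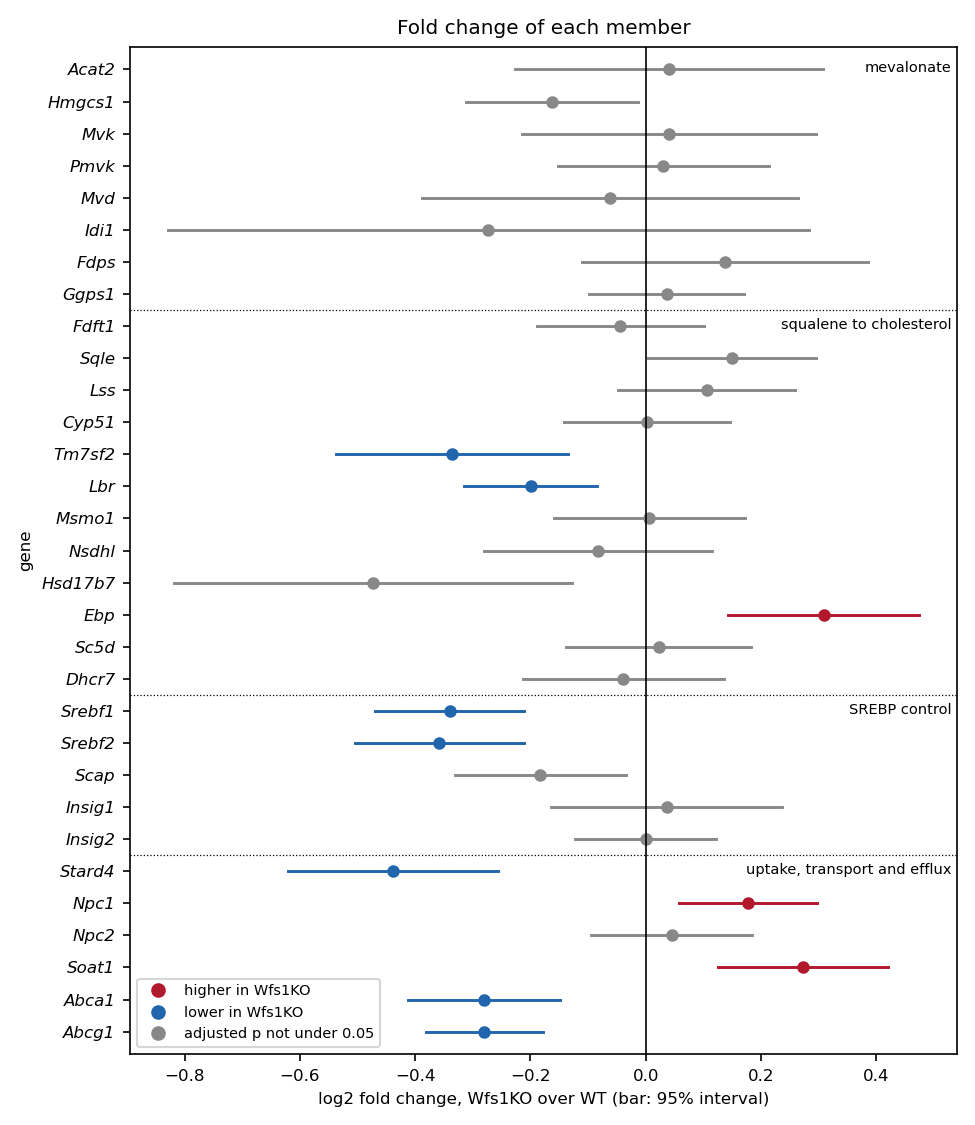
Log2 fold change of each gene, Wfs1KO over WT, from edgeR with its 95% interval, with 4 libraries per genotype and genes in the order of the steps. Genes that passed the test are coloured: 7 lie left of 0 and 3 right of it, and none of the 8 mevalonate genes is among them.

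Transport and efflux was the step with the largest share of genes that moved: 3 fell, 2 rose and 1 did not pass the test (median log2 fold change -0.12). Abca1 and Abcg1 encode the transporters that load cholesterol onto apolipoproteins and high-density lipoprotein, and in beta cells they are known to limit cholesterol loading. Abcg1 (NM_009593, chromosome 17, 31057694 to 31117981, plus strand) had 66.8, 64.4, 64.9 and 65.1 CPM in Wfs1KO replicates 1 to 4, against 76.7, 81.6, 79.3 and 79.8 CPM in WT replicates 1 to 4. All Wfs1KO libraries lay within a narrow band below WT (log2 fold change -0.28, SE 0.047, adjusted p = 9.67e-04), the smallest adjusted p of the 31 genes. Abca1 (NM_013454, chromosome 4, 53030789 to 53159895, minus strand) had 386, 351, 373 and 386 CPM in Wfs1KO replicates 1 to 4, against 444, 492, 453 and 429 CPM in WT replicates 1 to 4. WT replicate 2 was the highest library and Wfs1KO replicate 2 the lowest (log2 fold change -0.28, SE 0.061, adjusted p = 0.00527), and the genotypes did not overlap.

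Stard4 encodes a soluble carrier that moves cholesterol between membranes and is a known SREBP-2 target. Stard4 (NM_133774, chromosome 18, 33199138 to 33213862, minus strand) had 33.0, 31.2, 31.2 and 31.2 CPM in Wfs1KO replicates 1 to 4, against 39.9, 37.8, 42.4 and 51.4 CPM in WT replicates 1 to 4. Wfs1KO replicate 1 was slightly above the other Wfs1KO libraries, which were nearly equal, and WT replicate 4 stood highest (log2 fold change -0.44, SE 0.085, adjusted p = 0.00251). Of the 10 genes that moved, its fold change was the steepest.

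Soat1 and Npc1 rose. Soat1 encodes the acyltransferase that turns cholesterol into storable esters. Soat1 (NM_009230, chromosome 1, 156428108 to 156474328, minus strand) had 46.1, 45.6, 43.9 and 45.4 CPM in Wfs1KO replicates 1 to 4, against 37.8, 32.4, 38.3 and 41.2 CPM in WT replicates 1 to 4, and the genotypes did not overlap (log2 fold change 0.27, SE 0.068, adjusted p = 0.0122). Npc1 encodes the membrane protein that takes cholesterol out of late endosomes and lysosomes. Npc1 (NM_008720, chromosome 18, 12189694 to 12236386, minus strand) had 56.1, 51.1, 54.1 and 55.2 CPM in Wfs1KO replicates 1 to 4, against 50.2, 45.5, 49.4 and 46.4 CPM in WT replicates 1 to 4. The lowest Wfs1KO library lay just above the highest WT library (log2 fold change 0.18, SE 0.056, adjusted p = 0.0387).

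The rise of Npc1 was the least firm of the 10 calls. It missed the threshold in 14 of 20 alternative fits, among them DESeq2 (adjusted p = 0.0535), its size factors in edgeR (0.0621), limma-voom (0.0572), no filter on low counts (0.0826) and the 20 most abundant genes left out (0.0582). In edgeR without 1 library, its adjusted p was 0.115 without Wfs1KO replicate 1, 0.0961 without Wfs1KO replicate 3 and 0.0968 without Wfs1KO replicate 4. It was 0.0896 without WT replicate 2, 0.0565 without WT replicate 3 and 0.0980 without WT replicate 4. In the authors' deposited table it was 0.0606. Npc2, the soluble partner that hands cholesterol to Npc1, ran from 158 to 189 CPM in Wfs1KO, against 163 to 184 CPM in WT (log2 fold change 0.045, SE 0.065, adjusted p = 0.697) with overlapping genotypes.

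**Figure D3:**
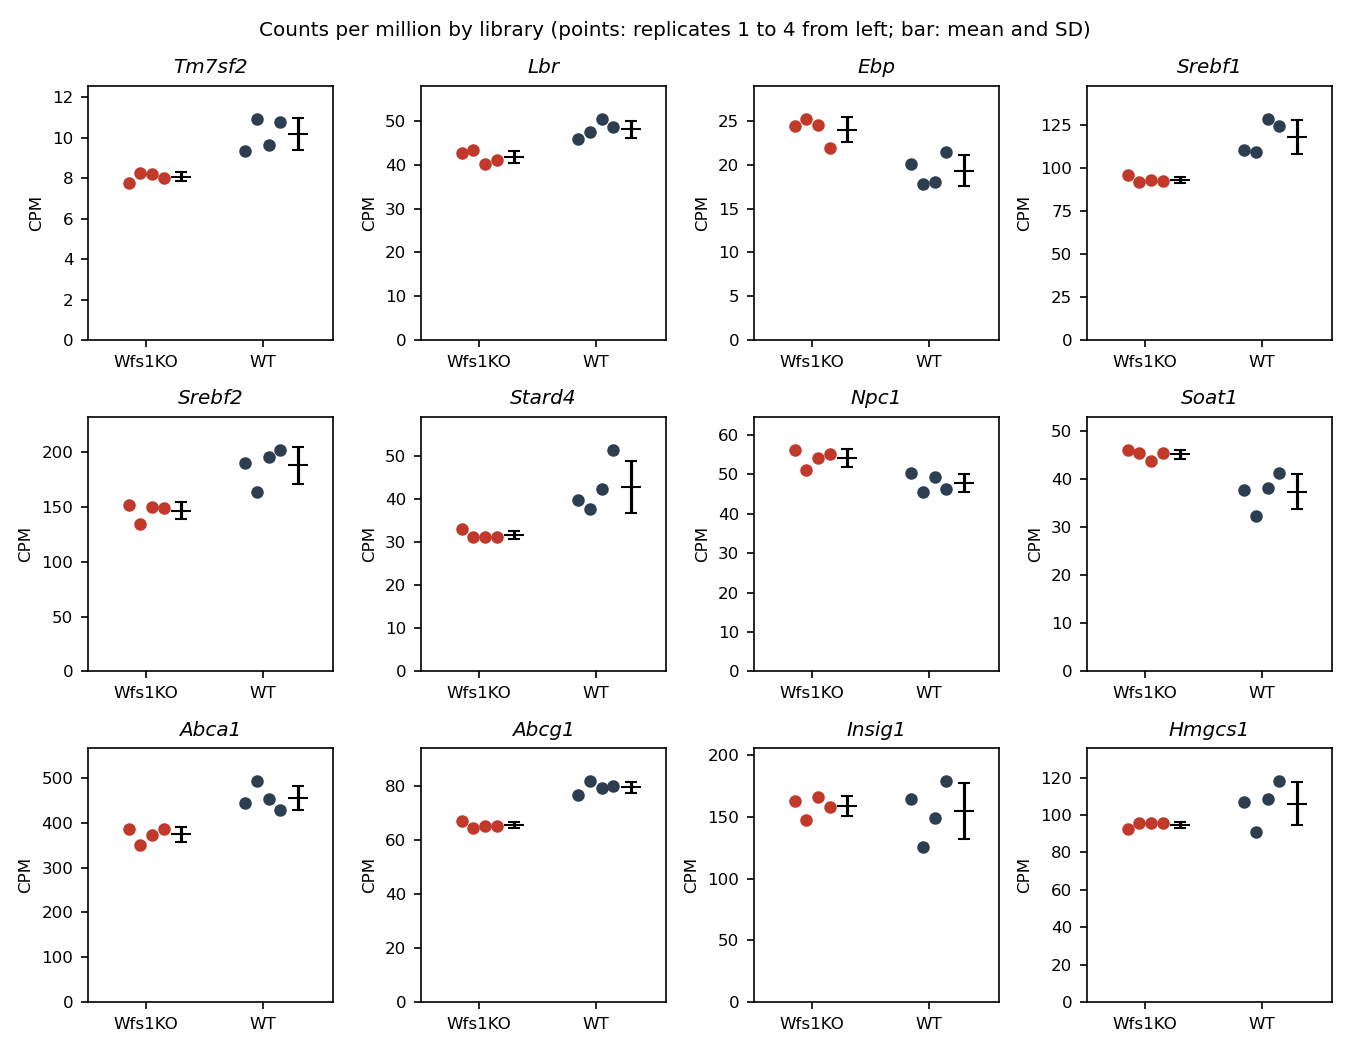
CPM in each library for the 10 genes that passed the test and, for comparison, Insig1 and Hmgcs1, with Wfs1KO (red) left of WT (dark blue); points are replicates 1 to 4 from left and the bar beside them is the mean with its SD, all axes from 0. In the 10 genes the points of the genotypes do not overlap, while those of Insig1 and Hmgcs1 do.

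Per length, the abundant genes were regulators and carriers as well as enzymes. CPM was divided by the transcript length in kb given with the counts, and levels between genes are compared on this scale only. Insig1 led with 60.0 ± 3.02 in Wfs1KO and 58.5 ± 8.58 in WT CPM per kb (SD), followed by Sqle with 58.4 ± 1.98 in Wfs1KO and 52.6 ± 5.32 in WT, Npc2 with 53.8 ± 4.108 in Wfs1KO and 52.1 ± 3.06 in WT and Msmo1 with 49.1 ± 2.20 in Wfs1KO and 48.8 ± 5.89 in WT. Each of these 4 differs from its neighbour in WT by less than the larger of their SDs, so their order is not set beyond the spread. Abca1 came next at 36.6 ± 1.61 in Wfs1KO and 44.5 ± 2.64 in WT CPM per kb, then Srebf2 at 32.2 ± 1.72 in Wfs1KO and 41.2 ± 3.64 in WT.

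At the low end, Mvd had 4.06 ± 0.325 in Wfs1KO and 4.23 ± 0.995 in WT CPM per kb and Hsd17b7 had 1.72 ± 0.252 in Wfs1KO and 2.40 ± 0.535 in WT. Idi1 was lowest with 0.593 ± 0.109 in Wfs1KO and 0.712 ± 0.161 in WT CPM per kb, and the WT means of the 31 genes spanned 82.2-fold. The order of the genes was nearly the same in both genotypes: the first 8 and the last 7 held the same ranks. Between them, Abcg1 ranked 18th in Wfs1KO against 15th in WT, and Ebp 15th in Wfs1KO against 18th in WT.

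**Figure D4:**
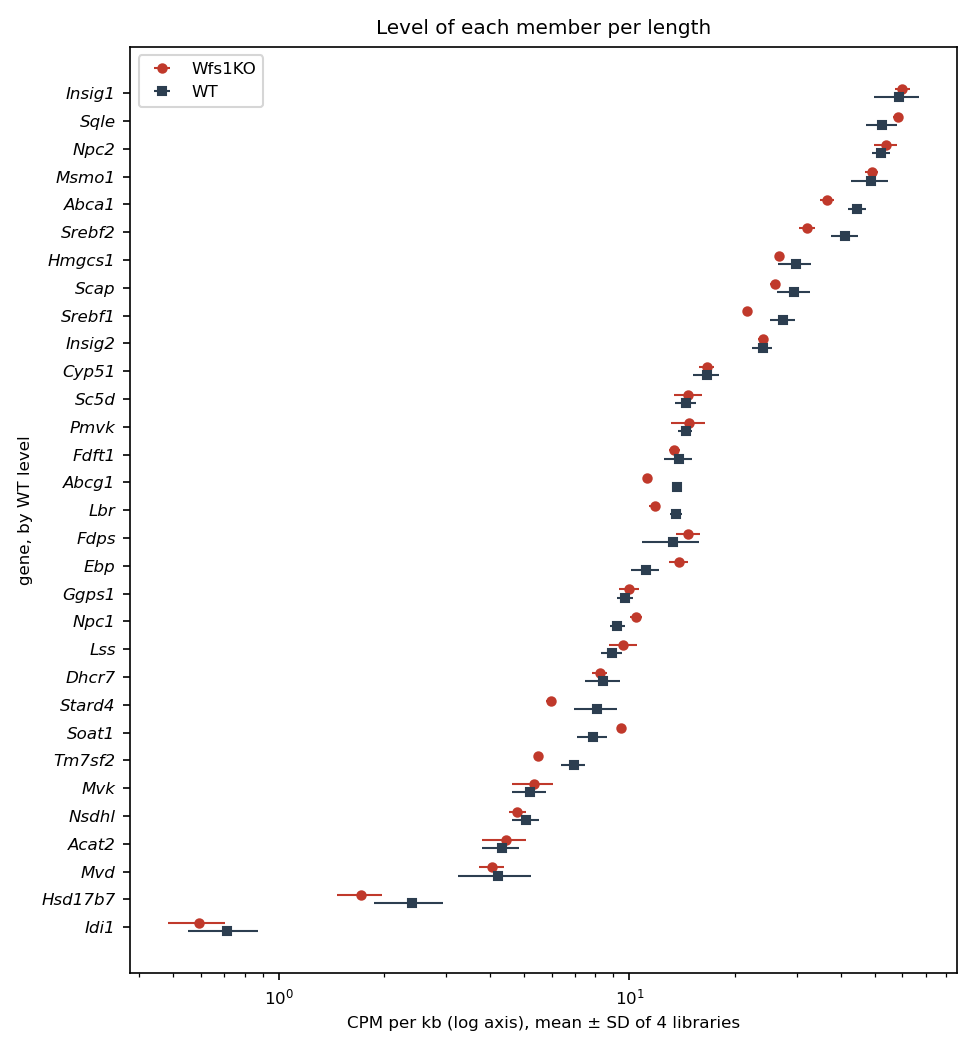
Mean CPM per kb ± SD of the 31 genes, ordered by their WT level, on a log axis, with 4 libraries per genotype (Wfs1KO circles, WT squares). Both genotypes follow nearly the same order from Insig1 (60.0 in Wfs1KO and 58.5 in WT) down to Idi1 (0.593 in Wfs1KO and 0.712 in WT), with the 7 genes that fell shifted left in Wfs1KO.

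Single libraries were often high or low in several of the genes at once. Of the 20 enzyme genes, WT replicate 2 was the lowest WT library in 13 and WT replicate 4 the highest in 14. Among the 12 genes from squalene to cholesterol, WT replicate 2 was the lowest in 10. In Wfs1KO, replicate 2 was the highest library in 11 of the 20 and the lowest in 6. Over the 31 genes, the median coefficient of variation between libraries was 4.89% in Wfs1KO and 9.0% in WT, and it was the smaller in Wfs1KO for 24 genes. No test of this difference in spread was made. Neither the spread nor the order of the libraries was counted over all genes, so neither can be called particular to these genes.

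Genes around the pathway, from lists of 61 genes, were read in the same fit. These genes were chosen by their role, but with earlier results of these data known, so their counts are description only. Of the 60 that could be tested, 13 rose and 8 fell. Each list is to be read against the 10.4% of all genes that rose and the 8.49% that fell. The fatty acid genes that SREBP-1 is known to drive fell in most cases, 7 of 12, with a median log2 fold change of -0.33. Me1 was the 1 that rose (log2 fold change 0.28, SE 0.091, adjusted p = 0.0453), and 4 did not pass the test: Fasn, Scd1, Scd2 and Fads1. Elovl5, an elongase of polyunsaturated fatty acids, had 162, 160.4, 176 and 172 CPM in Wfs1KO replicates 1 to 4, against 251, 224, 269 and 259 CPM in WT replicates 1 to 4 (log2 fold change -0.58, SE 0.063, adjusted p = 3.35e-05). Elovl6, an elongase of saturated fatty acids, had 34.8, 36.3, 33.3 and 35.3 CPM in Wfs1KO replicates 1 to 4, against 45.1, 45.1, 46.7 and 46.6 CPM in WT replicates 1 to 4 (log2 fold change -0.39, SE 0.052, adjusted p = 1.62e-04). Acly, which makes cytosolic acetyl-CoA for both fatty acid and cholesterol synthesis, ran from 1084 to 1273 CPM in Wfs1KO, against 1526 to 1792 CPM in WT (log2 fold change -0.49, SE 0.075, adjusted p = 4.96e-04). In these 3 genes the genotypes did not overlap, and the falls of Elovl5 and Acly were steeper on the log2 scale than that of any of the 31 genes that passed.

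Of 10 genes that cleave SREBPs or degrade sterol-regulated proteins, 1 rose and 0 fell (median -0.012), a share near that over all genes. The gene that rose was Mbtps2, the site-2 protease that frees the active part of SREBPs (log2 fold change 0.21, SE 0.063, adjusted p = 0.0314), at 34.3 to 39.9 CPM in Wfs1KO, against 30.4 to 32.4 CPM in WT. Of 7 LXR receptors and targets outside the 31 genes, 2 rose and 0 fell (median -0.044). Nr1h3, which encodes LXR-alpha, had 15.2, 14.9, 10.8 and 12.8 CPM in Wfs1KO replicates 1 to 4, against 9.57, 8.08, 6.35 and 8.25 CPM in WT replicates 1 to 4 (log2 fold change 0.73, SE 0.13, adjusted p = 0.00169). Pltp, the phospholipid transfer protein, ran from 14.1 to 21.5 CPM in Wfs1KO, against 10.4 to 13.6 CPM in WT (log2 fold change 0.56, SE 0.13, adjusted p = 0.01). Nr1h2, the other LXR gene, did not pass the test (log2 fold change -0.15, SE 0.067, adjusted p = 0.143). Per length it was the more abundant, at 27.1 ± 2.11 in Wfs1KO and 30.1 ± 1.98 in WT CPM per kb (SD). Nr1h3 had 6.91 ± 1.04 in Wfs1KO and 4.15 ± 0.680 in WT CPM per kb. Abca1, Abcg1 and Srebf1 are textbook LXR targets as well, and all 3 fell beside the rise of Nr1h3.

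Lipoprotein receptors and lysosomal release rose in 4 of 6 genes and fell in 0, with a median log2 fold change of 0.39. Scarb1, the high-density lipoprotein receptor, had 36.2, 36.5, 38.8 and 35.9 CPM in Wfs1KO replicates 1 to 4, against 27.2, 28.0, 27.8 and 30.2 CPM in WT replicates 1 to 4 (log2 fold change 0.38, SE 0.058, adjusted p = 4.63e-04). Vldlr, a receptor of triglyceride-rich lipoproteins, ran from 181 to 215 CPM in Wfs1KO, against 113 to 162 CPM in WT (log2 fold change 0.47, SE 0.096, adjusted p = 0.00525). Lrp1, a large endocytic receptor, ran from 77.1 to 101 CPM in Wfs1KO, against 60.5 to 75.2 CPM in WT (log2 fold change 0.39, SE 0.085, adjusted p = 0.00574). In all 3 genes every Wfs1KO library lay above every WT library.

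Among 10 genes of sterol transfer and ester storage, 3 rose and 1 fell (median 0.17). Stard5, a relative of Stard4 that also binds sterol, had 45.6, 50.4, 41.5 and 50.6 CPM in Wfs1KO replicates 1 to 4, against 25.8, 31.5, 22.7 and 25.1 CPM in WT replicates 1 to 4 (log2 fold change 0.84, SE 0.095, adjusted p = 7.05e-05). It thus rose where Stard4 fell, and neither gene overlapped between genotypes. Stard3nl, an anchor of late endosomes to the ER, rose (log2 fold change 0.25, SE 0.059, adjusted p = 0.00866), and Gramd1a, a carrier of plasma membrane cholesterol to the ER, fell (log2 fold change -0.25, SE 0.062, adjusted p = 0.0122).

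Of 4 oxysterol genes tested, Cyp46a1, the cholesterol 24-hydroxylase, rose (6.48 to 7.04 CPM in Wfs1KO, against 4.41 to 5.83 CPM in WT; log2 fold change 0.47, SE 0.12, adjusted p = 0.0179), and the other 3 did not pass. Ch25h, the 25-hydroxylase, had too few reads to be tested. Among 11 users of mevalonate products outside sterol synthesis, Dhdds alone rose and 0 fell (median 0.036). Dhdds, a subunit of the enzyme that builds the dolichol lipid for protein glycosylation, had 141, 133, 154 and 139 CPM in Wfs1KO replicates 1 to 4, against 94.0, 88.2, 88.7 and 93.8 CPM in WT replicates 1 to 4 (log2 fold change 0.63, SE 0.056, adjusted p = 6.27e-06).

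**Figure D5:**
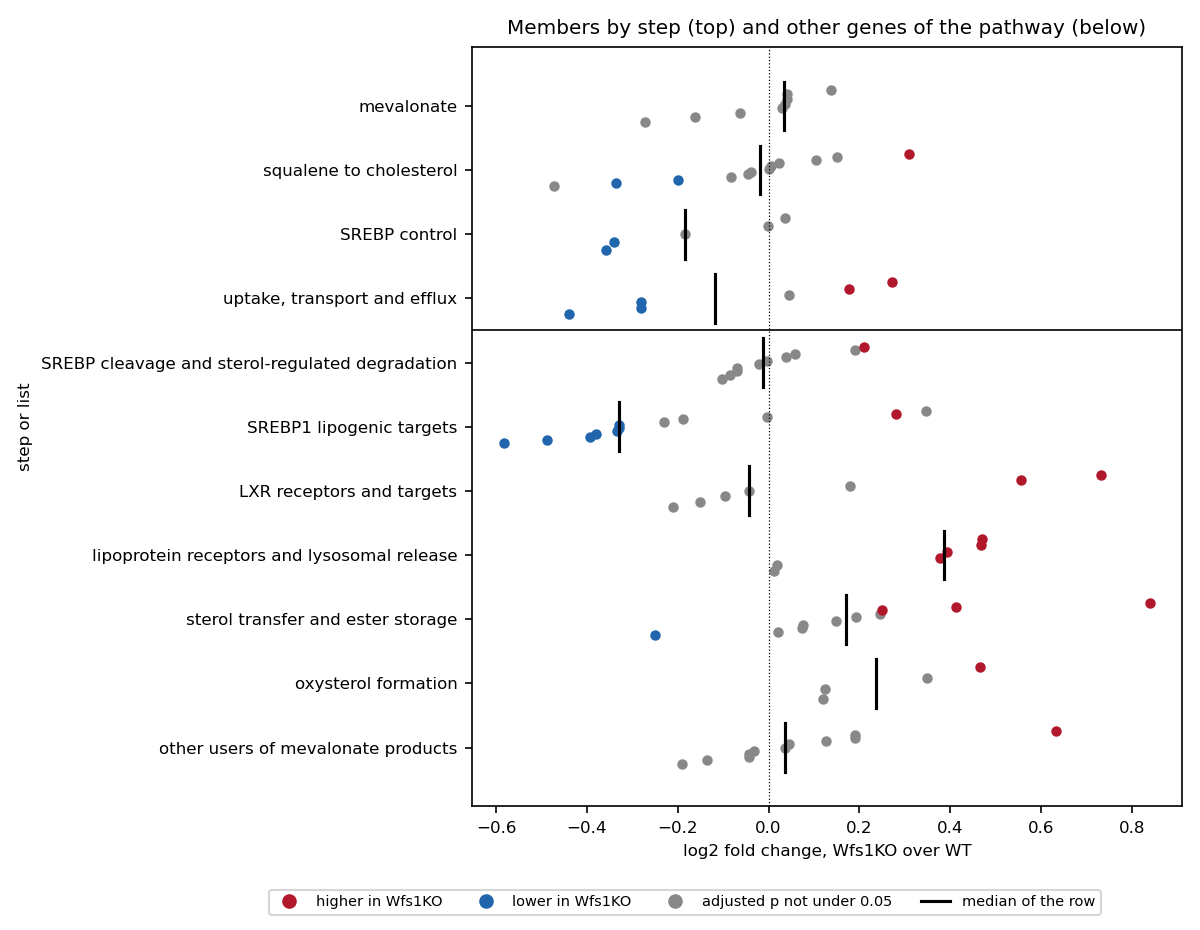
Log2 fold change, Wfs1KO over WT, of the 31 genes by step (above the line) and of the 60 tested genes of the surrounding lists (below it), each point 1 gene and each black bar the median of its row. The SREBP-1 lipogenic row has a median of -0.33 and the lipoprotein receptor row a median of 0.39, while the mevalonate row lies around 0.033.

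Cell markers moved with genotype beside these genes. Pericyte and stellate markers summed to 325 to 385 CPM in Wfs1KO against 192 to 280 CPM in WT, with 3 of 10 up, and Rgs5, the most abundant, had 219 ± 12.9 CPM in Wfs1KO and 135 ± 10.5 CPM in WT (SD, n = 4 each). Kdr, the most abundant endothelial marker, had 204 ± 18.6 CPM in Wfs1KO and 154 ± 12.4 CPM in WT. Abca1, Abcg1, Soat1, Scarb1, Lrp1 and Vldlr are known to be expressed in vascular cells or macrophages as well. Macrophage markers summed to 101 to 232 CPM in Wfs1KO against 94.5 to 150.4 CPM in WT, with 0 of 9 tested past the threshold, and C1qa, the most abundant, had 38.4 ± 6.47 CPM in Wfs1KO and 38.1 ± 8.77 CPM in WT. Acinar markers summed to 9532 to 66245 CPM in Wfs1KO against 31163 to 69361 CPM in WT, with 0 of 9 tested past the threshold and Amy2a2 at 0 counts in all libraries.

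Among the other endocrine cells, delta and PP cell markers summed to 4748 to 6942 CPM in Wfs1KO against 4030 to 5002 CPM in WT, with 3 of 5 up and a median log2 fold change of 0.33. Alpha cell markers summed to 18768 to 26115 CPM in Wfs1KO against 15780 to 20706 CPM in WT, with 1 of 6 up. The marker that rose was Gc (log2 fold change 1.10, SE 0.15, adjusted p = 9.98e-04), named after its values were seen. Ductal markers summed to 477 to 561 CPM in Wfs1KO against 503 to 554 CPM in WT, with 1 of 7 up, and Schwann cell markers to 22.7 to 28.3 CPM in Wfs1KO against 22.8 to 27.9 CPM in WT, with 1 of 5 up.

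The part of the endocrine and vascular markers in these results was not tested. The endothelial sums do not overlap between genotypes, so their level and genotype cannot be told apart: with it as a covariate, 4 genes of all tested passed and 0 of the 31. Such a fit can hardly estimate the genotype term, so its fold changes decide nothing. Acat2, for one, went from 0.041 to 0.90 on the log2 scale. The log2 fold changes of the 10 genes were -0.52 for Srebf1, -0.54 for Srebf2, -0.48 for Stard4, -0.48 for Abca1 and -0.40 for Abcg1. They were -0.25 for Tm7sf2, -0.23 for Lbr, 0.29 for Ebp, 0.38 for Soat1 and 0.036 for Npc1, against 0.18 for Npc1 without the covariate. With the acinar level, which does overlap, as a covariate, the counts were again 3 up and 7 down.

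In the authors' deposited table, 8 of the 31 genes were lower and 2 higher in Wfs1KO at an adjusted p under 0.05. The difference from the counts above lies in Hsd17b7, which passes there, and Npc1, which does not. Reads were counted without regard to strand as far as the file headers show, and 8 of the 31 genes share exon bases with a gene on the other strand. For Fdft1 this is Ctsb (774 bases), for Srebf1 it is Rai1 (109 bases) and for Npc1 it is Rmc1 (192 bases), and reads there cannot be told apart. Fdps shares 1124 exon bases with Gm43738 on its own strand, and Acat2 has a close paralog, Acat3, beside it, so both values are uncertain.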

How the data were processed

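Polyadenylated RNA of 8 islet samples, 4 Wfs1KO and 4 WT by the genotype label, was sequenced. The submitters' processing notes name bcl2fastq, STAR 2.6.0a, HOMER 4.11.1 and DESeq2, and the build mm10. Per the file headers, HOMER summed reads over the exons of each RefSeq gene without normalizing them and without a strand setting, which makes the deposited table a table of raw counts. The same submission holds, as the authors' own deposited DESeq2 comparison, log2 fold changes with unadjusted and adjusted p-values, of which those of the 31 genes were used. Its sign is Wfs1KO over WT, checked against the counts. Their transformed log2 values per library were not used.

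The main fit used edgeR 4.0.16 under R 4.3.3, with TMM library sizes and a robust quasi-likelihood F-test, on 15733 of 24537 genes that passed filterByExpr by genotype (minimum count 10, minimum total count 15), with Benjamini-Hochberg adjustment over all of them. The common biological coefficient of variation was 10.7%. The fit was tested on simulated data. The absolute fold change divided by the square root of F gave the SE. CPM values use the TMM-scaled library sizes. The exon counts per library set the counting precision of each level, and intervals of fold changes are at 95%.

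The 31 genes, the surrounding lists and the markers were chosen with earlier results of these data known. All 31 genes are named, as is Wfs1. Up to 3 genes of each surrounding list are named, those with the smallest adjusted p among those past the threshold. The most abundant endothelial, stellate and macrophage markers are named as well. After their values were seen, Nr1h2 and the SREBP-1 targets that rose or did not pass were added. Lists are described by counts and medians. Promoters are RefSeq windows on GRCm38.p6, and exon overlaps come from GENCODE M21 (GRCm38).

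The labels give both genotypes the same replicate numbers without saying what they mark. Across genes, which are not independent replicates, the deviations of a Wfs1KO library and its same-numbered WT library from the mean of each genotype correlated at 0.153, 0.443, 0.269 and 0.188 for numbers 1 to 4. All were over 0.1, the bar set for treating the numbers as pairs, and a fit with a replicate block was made beside the one reported. The pairing is weak: Wfs1KO replicate 1 correlated more with WT replicate 2 (0.507) and Wfs1KO replicate 4 more with WT replicate 3 (0.458) than with their own numbers. Over the 31 genes alone the same-numbered values were -0.191, 0.171, -0.13 and -0.284. The first principal component (37.9% of variance) parted replicates 1 and 2 from 3 and 4. Other alternatives were DESeq2 1.42.0, its size factors in edgeR, limma-voom (limma 3.58.1), other filters, covariates and thresholds, a block of replicates 1 and 2 against 3 and 4, each of these pairs alone, and each library left out.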

Additional observations from a re-analysis of the deposited data

Results flagged for a closer look

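In each genotype, the highest and the lowest of the 4 libraries were compared with the rest of their genotype for each of the 31 genes, which makes 62 groups. In 4 of them the gap between 1 library and its nearest neighbour took more of the whole range than the 95% critical value of Dixon's test for 4 values. Chance alone is set to do so in about 1 in 20 groups. Hmgcs1 was lowest in Wfs1KO replicate 1, at 92.4 CPM. Srebf2 was lowest in Wfs1KO replicate 2, at 135 CPM, which is on the side away from WT. Stard4 was highest in Wfs1KO replicate 1, at 33.0 CPM, still below the lowest WT library. Cyp51 was lowest in WT replicate 2, at 62.6 CPM. The ranges behind the Hmgcs1 and Stard4 values are narrow, as the other 3 Wfs1KO libraries were nearly equal.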

How the results depend on the processing

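The 31 genes under 20 alternatives give 620 values, of which 516 kept their direction and their side of the threshold, 34 lost the call, 18 gained it and 52 changed sign. No gene that passed the test changed sign, which the lack of overlap between their libraries made likely beforehand. With 1 library left out, 6 to 9 of the 31 genes fell, 2 or 3 rose, and 2387 to 2734 of all genes passed. Replicates 3 and 4 alone gave 1846 genes past the threshold, and 0 of the 31 rose. Ebp, Soat1 and Abca1 lost the call there (adjusted p = 0.268, 0.243 and 0.0638). With endothelial markers as a covariate, 4 genes passed, and 0 of the 31 rose and 0 fell. At an adjusted p under 0.01, 1744 genes passed and 0 of the 31 rose, as a stricter threshold must give no more. Srebf1, Srebf2, Stard4 and Abcg1 kept the call in every alternative fit other than the endothelial covariate. With the replicate block, 2932 genes passed, 3 of the 31 rose and 8 fell. With replicates 1 and 2 against 3 and 4 as a block, 3417 genes passed, 3 of the 31 rose and 9 fell, adding Hsd17b7 and Scap. The replicate block added Hsd17b7 and changed no other call among the 31, and Npc1 kept an adjusted p of 0.0449.

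Genes near 0 changed sign without a call, and the cause was not tested. Replicates 3 and 4 alone gave log2 fold changes of -0.022 for Acat2, -0.25 for Mvk, -0.069 for Pmvk, -0.035 for Fdps, -0.071 for Cyp51, -0.059 for Msmo1, -0.026 for Insig1, 0.046 for Insig2 and -0.080 for Npc2, and a median of -0.16 for the mevalonate steps. Replicates 1 and 2 alone gave 0.27 for Mvd, -0.073 for Ggps1 and -0.089 for Sc5d. The endothelial covariate gave 0.031 for Hmgcs1, 0.39 for Mvd, 0.27 for Fdft1, -0.30 for Cyp51 and 0.013 for Dhcr7, and the acinar covariate -0.0059 for Cyp51, -0.0067 for Msmo1 and 0.015 for Insig2. DESeq2 gave -0.011 for Cyp51 and -0.0058 for Msmo1, its size factors in edgeR -0.011 for Cyp51 and -0.0061 for Msmo1, and leaving out the 20 most abundant genes -0.020 for Cyp51 and -0.015 for Msmo1. Limma-voom gave -0.023 for Cyp51 and -0.017 for Sc5d, a filter of 1 CPM in 4 libraries -0.0035 for Cyp51, no filter 0.0042 for Insig2, and the replicate block 0.00070 for Insig2. With 1 library left out in turn, values ran from -0.040 to 0.11 for Acat2, -0.015 to 0.12 for Mvk, -0.045 to 0.070 for Pmvk, -0.18 to 0.085 for Mvd, -0.017 to 0.066 for Ggps1, -0.060 to 0.031 for Cyp51, -0.057 to 0.077 for Msmo1, -0.048 to 0.067 for Sc5d, -0.11 to 0.030 for Dhcr7, -0.051 to 0.12 for Insig1 and -0.032 to 0.042 for Insig2.

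Depth limits the genes of low level most: Idi1 has an SE of 0.26 on the log2 scale, and Ch25h could not be tested.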
